A study of Mus musculus with 6 samples.

Results

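Library TAFE4_tam was set against library TAFE3_tam, which compares human APOE4 with human APOE3 in tau transgenic mice treated to remove APOE from astrocytes. Nuclei were taken where they held at least 500 unique molecular identifiers (UMIs, counted RNA molecules), at least 300 genes and at most 5% of UMIs from mitochondrial genes. This gave 14442 nuclei of TAFE4_tam and 10817 of TAFE3_tam, or 25259 of the 77421 nuclei in all 6 libraries that met the same limits. After 1669 and 936 likely doublets were left out, 12773 and 9881 nuclei were used. The mice of both libraries were B6, 9 months old, carried the P301S tau transgene and a CreERT written Aldh1la1CreERT in the labels, were homozygous for a floxed human APOE gene, and had been given tamoxifen. By the labels the libraries differed in the allele alone, APOE4 fl/fl or APOE3 fl/fl. Tamoxifen and removal of the gene came together in both, so their effects cannot be told apart. Beside them stand TAFE4_oil and TAFE3_oil, with the same genotypes and oil in place of tamoxifen, and FE4 and FE3, with floxed APOE, no tau transgene, no Cre and no treatment, all at 9 months.

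Each library stands for 1 sample, and the sources used here give no number of animals. There is thus no replicate check and no test between animals. Brackets below hold exact 95% intervals that cover counting error alone. The titles name hippocampus, the protocol a frozen left hemisphere and the tissue label brain, and neurons with cortical layer markers were abundant in both libraries. The labels name both 3′ end sequencing and 5′ kits, and they do not say which promoter drives the tau transgene.

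Apolipoprotein E carries cholesterol and other lipids between brain cells. Astrocytes are its chief source in healthy brain, and microglia make much of it once they react to damage. Human APOE4 carries a higher risk of Alzheimer's disease than APOE3, and in tau transgenic mice it is known for worse loss of tissue and stronger glial reaction. CreERT is a recombinase that acts when tamoxifen is present, here under an astrocyte gene, and cuts out the floxed gene in cells that express it. Type I interferons, which also enter the results below, bind a receptor that acts through STAT2, IRF9 and other factors on genes that limit viruses and present antigen.

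Mitochondrial RNA differed between the libraries and moved with several results. Its median share of UMIs in used nuclei was 0.580% in TAFE4_tam and 2.03% in TAFE3_tam, and 11.3% and 26.7% of barcodes were over the limit of 5%. TAFE4_tam held 40581803 UMIs and TAFE3_tam 39050503, and used nuclei had medians of 2157 and 2543 UMIs. The libraries shared 68 barcodes, 0.417% and 0.461% of their barcodes. Y-linked Ddx3y stood at 80.4 and 73.7 CPM (UMIs scaled to a fixed total, the standard CPM unit) and Xist, the RNA of X inactivation, at 7.20 and 1.94. Clustering of all 6 libraries gave 30 clusters, of which 9 (1361 and 1230 nuclei here) matched no single set of markers and stay unnamed. The other clusters are called by the cell type whose markers they hold, which means like that type.

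Microglia, the immune cells of brain tissue, made up a larger share of nuclei in TAFE4_tam, a difference that was small without the mitochondrial limit. There were 1540 microglia in TAFE4_tam, 12.1% [11.5, 12.6] of nuclei, and 572 in TAFE3_tam, 5.79% [5.34, 6.27], a log2 ratio of 1.06 [0.92, 1.2]. Of all microglial barcodes the limit had removed 9.9% in TAFE4_tam and 60.6% in TAFE3_tam. With no limit there were 1710 and 1453, and the log2 ratio of shares was 0.15. Doublets were scored only among nuclei within the limit, so the barcodes added back were not screened for them. Among glial nuclei alone the ratio for microglia was 0.54. Summed over all used nuclei, 11 microglial markers stood at 953 and 570 CPM. The oil pair, whose libraries had similar mitochondrial shares, had 0.06, and FE4 against FE3, where FE4 was the library low in mitochondrial RNA, had 1.12.

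Astrocytes numbered 254 and 352, or 1.99% [1.75, 2.25] and 3.56% [3.21, 3.95], a log2 ratio of -0.84 [-1.08, -0.60]. Without the mitochondrial limit there were 331 and 759 and the ratio was -1.28. At most 1% mitochondrial UMIs left 112 and 13 and turned the direction, to 0.69. The summed level of 11 astrocyte markers over all nuclei was 1056 and 1429 CPM. The astrocyte ratio was -0.38 in the oil pair and 0.29 in FE4 against FE3. Fewer nuclei of a type and a loss of that type during isolation or filtering cannot be told apart here.

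Oligodendrocytes, which make myelin, numbered 1666 and 871, 13% and 8.81% of nuclei, a log2 ratio of 0.57 [0.45, 0.69] that was 0.39 without the mitochondrial limit and 0.044 among glia alone. Their precursors made up 2.94% and 2.68%, a ratio of 0.13 [-0.10, 0.37], and -0.30 without the limit. T cells, lymphocytes that are rare in healthy brain, numbered 51 and 5, or 56 and 31 without the limit. The T cell gene Ms4a4b had 63 UMIs in 34 nuclei of that class in TAFE4_tam and 5 in 3 nuclei of TAFE3_tam, and Cd3g of the T cell receptor complex had 21 in 18 and 1 in 1. The oil libraries held 18 T cells each. Endothelial nuclei of blood vessels numbered 75 and 89, and border macrophages, which lie along vessels and meninges, 57 and 28.

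Shares of hippocampal neurons differed little at the limits used, and by more at others. Dentate granule cells made up 11.9% [11.3, 12.4] and 11.2% [10.6, 11.9], a log2 ratio of 0.08 [-0.04, 0.19]. CA1 neurons made up 8.51% [8.03, 9.01] and 8.13% [7.6, 8.68], a ratio of 0.07 [-0.07, 0.20]. CA2 or CA3 neurons, not split here, made up 3.9% and 4.28%, a ratio of -0.13 [-0.32, 0.06]. At no more than 1% mitochondrial UMIs the ratios of granule, CA1 and CA2 or CA3 neurons were 0.39, -0.34 and -1.33, and with no limit 0.17, 0.22 and 0.13. Coarser clusters gave -0.25 in CA1. In the oil pair the ratios in that order were -0.42, -0.94 and -0.59, all with lower shares in TAFE4_oil, and that difference between pairs was not tested. Cortical or subicular excitatory neurons had -0.28 [-0.36, -0.20] and inhibitory neurons -0.37 [-0.49, -0.25], against 0.28 and 0.36 in the oil pair. How much of the cortex each dissection held can move every share and was not measured.

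**Figure D1:**
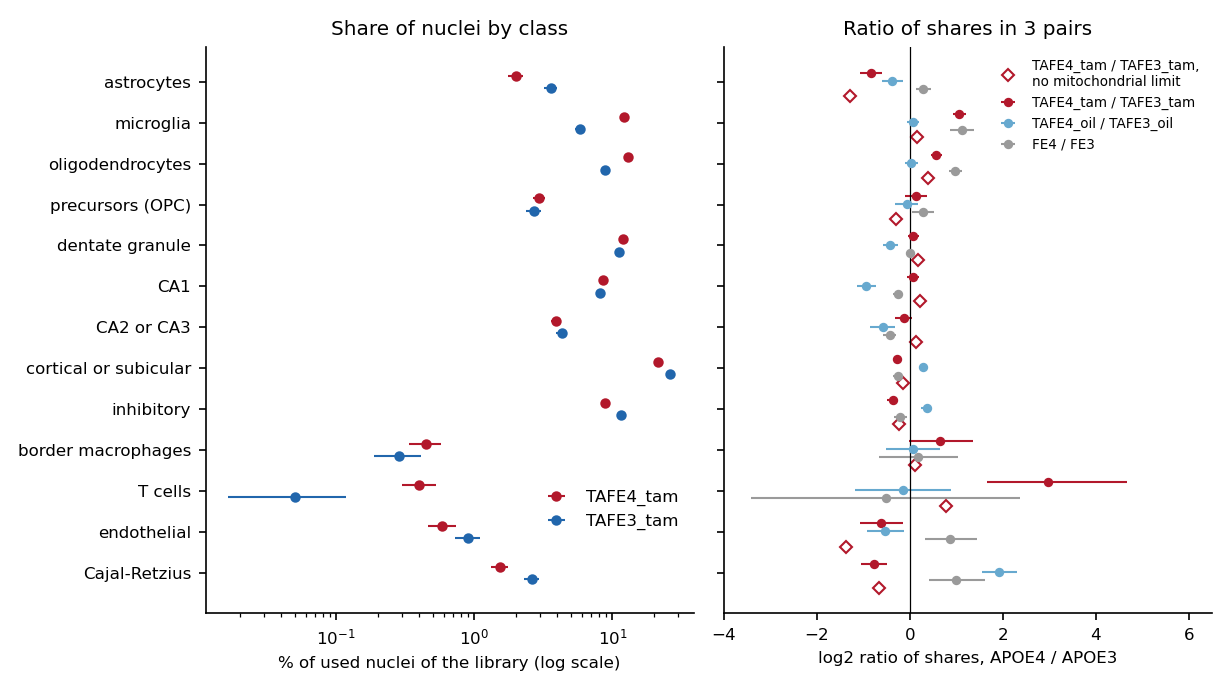
The left panel plots each class as a percentage of used nuclei on a log axis, with exact 95% intervals, for TAFE4_tam (red) and TAFE3_tam (blue). The right panel plots the log2 ratio of shares in 3 pairs, with open diamonds for the tamoxifen pair without a mitochondrial limit. The microglial point at 1.06 moves to 0.15 there, while the astrocyte point moves from -0.84 to -1.28.

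Human APOE, the floxed gene, was at like levels in astrocytes of both libraries, below those of the oil libraries. It stood at 5226 [5029, 5428] CPM, here scaled to the UMIs of the class, in TAFE4_tam and 5250.3 [5083, 5421] in TAFE3_tam, a log2 ratio of -0.01 [-0.08, 0.07], against 19249 and 16411 in TAFE4_oil and TAFE3_oil. The median astrocyte nucleus held 3 APOE UMIs in each tamoxifen library, and 27.5 and 23 in the oil libraries. Thinned to 1000 UMIs, 78.2% and 78.8% of astrocytes had an APOE UMI, but so did 59.6% and 56.2% of dentate granule neurons. The granule neurons had unthinned median depths of 2222 and 2342 UMIs, and the part of free RNA in these shares was not tested.

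In microglia, in which the Cre is not meant to act, APOE was higher in TAFE4_tam. It stood at 21167 and 17638 CPM, a log2 ratio of 0.26 [0.23, 0.29], and at 25922 and 16528 in the oil pair, a ratio of 0.65. Summed over all nuclei, where the share of microglia differed as given above, APOE was 2111 and 1411 CPM, a ratio of 0.58 [0.56, 0.60]. In the neuron classes APOE ran from 415 to 859 CPM in TAFE4_tam and from 361 to 811 in TAFE3_tam, with ratios from 0.02 to 0.20. Neurons make little APOE, and these levels are not read as expression, since free RNA can give UMIs in every class. Mouse Apoe, also on the gene list of the files, had ratios of 0.43 in astrocytes and 0.49 in microglia, and whether its UMIs came from the human transcript was not tested.

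**Figure D2:**
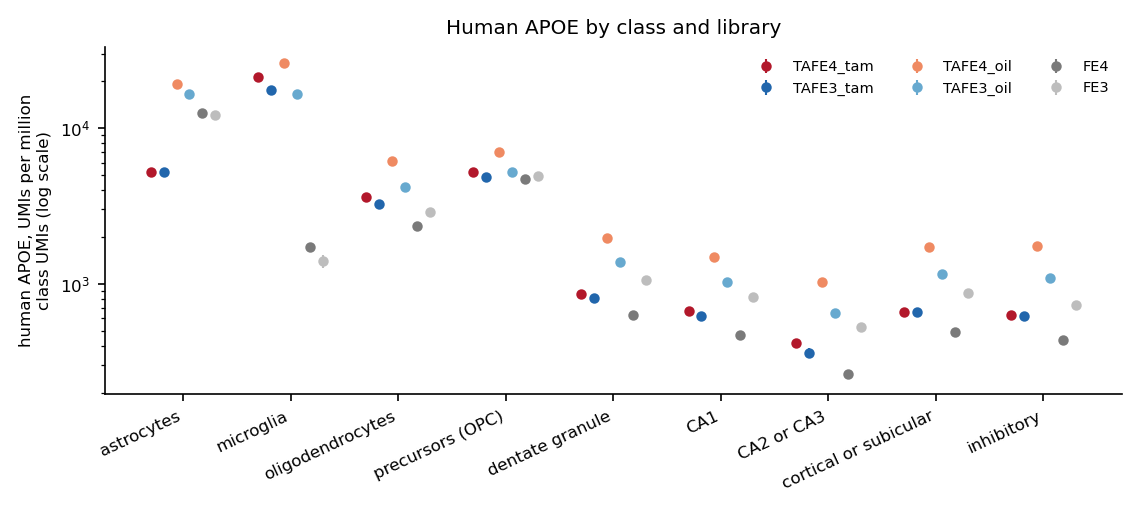
Human APOE in CPM (log axis) in 9 classes and 6 libraries, with exact 95% counting intervals that are mostly smaller than the points. In astrocytes the tamoxifen libraries (red, blue) lie on top of each other at 5226 and 5250.3, below the oil libraries at 19249 and 16411.

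Interferon-stimulated genes were higher in TAFE4_tam, in glia and in neurons. In microglia, of 56 genes on the list, 29 had at least 100 UMIs over both libraries, the depth asked of every gene below. Of these, 21 were at least 1.5-fold higher in TAFE4_tam and 0 lower, beside 7.83% higher and 5.3% lower among all 4279 microglial genes of that depth. Their median log2 ratio was 0.88, beside 0.07 over all genes, and -0.21 over the 12 such genes of the oil pair, of which 0 were past the fold higher and 2 lower, beside 2% and 1.05% of all genes there. FE4 against FE3, where FE4 was low in mitochondrial RNA, had no list gene of that depth in microglia. Its summed UMIs of the list there, 433 and 173, had a log2 ratio of 0.65 [0.39, 0.91], and its sums in the other classes compared were below 0. Counts are of genes past a fold, not of tested genes. The depth is counted over both libraries of a pair, so a gene can reach it through the library where it is higher. TAFE4_tam held 1539346 microglial UMIs and TAFE3_tam 611009. The 29 genes of the tamoxifen pair and the 12 of the oil pair are also not the same set. From 20 UMIs on, the medians were 0.88 over 53 list genes and -0.15 over 47 in the oil pair. The list was chosen with earlier results of these data known.

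The members in microglia covered the pathway from signal to effector. Stat2, which relays the receptor's signal, had 170 and 26 UMIs, or 110 and 42.6 CPM, in TAFE4_tam and TAFE3_tam, a log2 ratio of 1.38 [0.77, 2.03]. Its partner Irf9 stood at 114 and 62.2 CPM (0.88). Irf7, which amplifies interferon output, was at 55.9 and 31.1 CPM (0.85). Among effectors, Mx1, a GTPase that traps viral particles, was at 70.2 and 24.6 CPM (1.51), and Ifit3, which acts with RNA-binding IFIT proteins, at 67.6 and 31.1 (1.12). All these genes were higher in TAFE4_tam by more than the counting error. Rnf213, a large ubiquitin ligase, was at 79.9 and 32.7 CPM (1.29), and Bst2, which tethers budding virus, at 113 and 62.2 (0.86). The chemokine Cxcl10 was the member that did not follow, at 111 and 119 CPM, -0.11 [-0.51, 0.31]. Interferon itself was barely counted: Ifnb1 had 2 UMIs in all of TAFE4_tam, in 12773 nuclei, and 0 in TAFE3_tam. Ifng had 0 in both, and a count of 0 does not show that a gene was silent.

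Promoters of some of these genes are shown because interferon acts through a short element, GAAA, any 2 bases and GAAA again, to which a complex that holds STAT2 and IRF9 binds. Matches were sought on both strands in the 250 bases before each RefSeq start (build GRCm38.p6). Of 20 list genes past 1.5-fold in microglia that carry their symbol in the table, 16 had an entry and 6 held a match, beside 3.42% of the 3274 tested microglial genes with an entry and 3.46% of all 27025 genes. Of 5 tested list genes short of that fold with an entry, 2 held one. The list was made of interferon-stimulated genes, so a share above that of all genes follows from its choice and tells nothing about these libraries. Among the genes printed below, Ifit1 had 96 UMIs in microglia, short of the depth asked, and Cxcl10 was not higher there (-0.11). Capitals mark the match, which on the printed strand has this form or its reverse complement, TTTC, any 2 bases and TTTC. The first, at chr5:92349053-92349139 on the minus strand, is that of the chemokine gene Cxcl10. The second, at chr19:34640745-34640853 on the plus strand, is that of Ifit1, and the third, at chr19:34583333-34583456 on the plus strand, is that of Ifit3.
Cxcl10: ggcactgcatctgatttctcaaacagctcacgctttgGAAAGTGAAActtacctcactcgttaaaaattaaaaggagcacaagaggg
Ifit1: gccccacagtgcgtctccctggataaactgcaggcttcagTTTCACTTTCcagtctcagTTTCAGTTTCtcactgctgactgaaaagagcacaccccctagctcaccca
Ifit3: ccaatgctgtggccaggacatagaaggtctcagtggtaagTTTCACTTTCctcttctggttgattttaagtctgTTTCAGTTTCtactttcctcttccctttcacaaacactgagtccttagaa
The window of Cxcl10 holds 1 match, and those of Ifit1 and Ifit3 hold 2 each. Stat2, Gbp7 and Gbp3 also held a match and Rnf213, Eif2ak2, Irf7 and Apod none, which describes these letters in this window and no binding.

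CA1 neurons, the output cells of the hippocampus, also had members of the list higher. Of 20 list members deep enough there, 15 were past 1.5-fold higher in TAFE4_tam and 0 lower, with a median of 1.35, beside 2.58% higher and 1.46% lower among 7547 genes. The 3 highest CA1 genes of the naming rule were all interferon-stimulated. They reached the 20 CPM of that rule in TAFE4_tam alone, and the rule ranks by the same ratios, so their size follows in part from the choice. Gbp7, a guanylate-binding GTPase, had 105 UMIs in 73 nuclei of TAFE4_tam and 16 in 13 of TAFE3_tam, 29 and 5.86 CPM, a log2 ratio of 2.31 [1.54, 3.17]. Eif2ak2, the kinase PKR that senses double-stranded RNA, was at 30.4 and 6.96 CPM, 2.13 [1.42, 2.91], and Rnf213 at 61.0 and 16.1 CPM, 1.92 [1.45, 2.42]. In the oil pair these 3 had -0.62 [-2.29, 0.85], -0.30 [-1.31, 0.65] and -0.72 [-1.73, 0.21], from few UMIs and with intervals that span 0.

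Ifit1, whose promoter is printed above and whose protein binds foreign RNA ends, had 1023 and 308 UMIs in CA1, or 283 and 113 CPM (1.33). Isg15, a ubiquitin-like tag put on proteins after interferon, was at 40.1 and 12.1 CPM (1.73). Ifi27 and Ifitm3, also on the list, did not reach the fold, with ratios of -0.09 and -0.30. The list's median in CA1 stayed at 1.01 when only nuclei with at most 1% mitochondrial UMIs were read, and was 1.38 with no limit.

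Sums over the list were higher in TAFE4_tam in all 9 classes. Over the list, summed CPM was 2880 and 1327 in astrocytes, a log2 ratio of 1.12 [1.00, 1.24]. Of the 1466 and 945 UMIs in that sum, 198 and 19 were of Cxcl10 and came from few nuclei, as given below. The sums were 4066 and 2368 in microglia, 0.78 [0.70, 0.86], and 1394 and 712 in CA1, 0.97 [0.89, 1.04]. Precursors had 0.68 [0.52, 0.83], CA2 or CA3 neurons 0.65 [0.52, 0.78] and granule cells 0.46 [0.35, 0.57]. Inhibitory neurons had 0.42 [0.31, 0.52], cortical or subicular neurons 0.40 [0.34, 0.47] and oligodendrocytes 0.35 [0.23, 0.47]. No interval reached 0. Counts past 1.5-fold were 3 of 4 in astrocytes, 3 of 7 in oligodendrocytes, 1 of 2 in precursors, 3 of 7 in granule cells, 4 of 5 in CA2 or CA3, 6 of 18 in cortical and 3 of 8 in inhibitory neurons, all higher. The shares of all genes past it higher were, in that order, 2.4%, 4.24%, 2.6%, 1.7%, 3.77%, 2.32% and 2.12%.

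More nuclei carried these RNAs, too. Thinned to 1000 UMIs, 32.7% of 507 microglia in TAFE4_tam and 15.8% of 155 in TAFE3_tam held at least 5 UMIs of the list. Without thinning the shares were 29.2% of 1540 and 14.5% of 572, at median depths of 915 and 850.5 UMIs, and 10.9% and 11.8% in the oil libraries. In CA1 the thinned shares were 7.44% and 1.83%, and 27.9% and 12.6% without thinning. Interferon genes in neurons were read after the microglial result had been seen. The sum was 2.17-fold higher in astrocytes, 1.96-fold higher in CA1 and 1.72-fold higher in microglia. That order counts Cxcl10 in, and the order without it was not tested. Free RNA from glia can reach every class, and its part in these values was not tested.

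**Figure D3:**
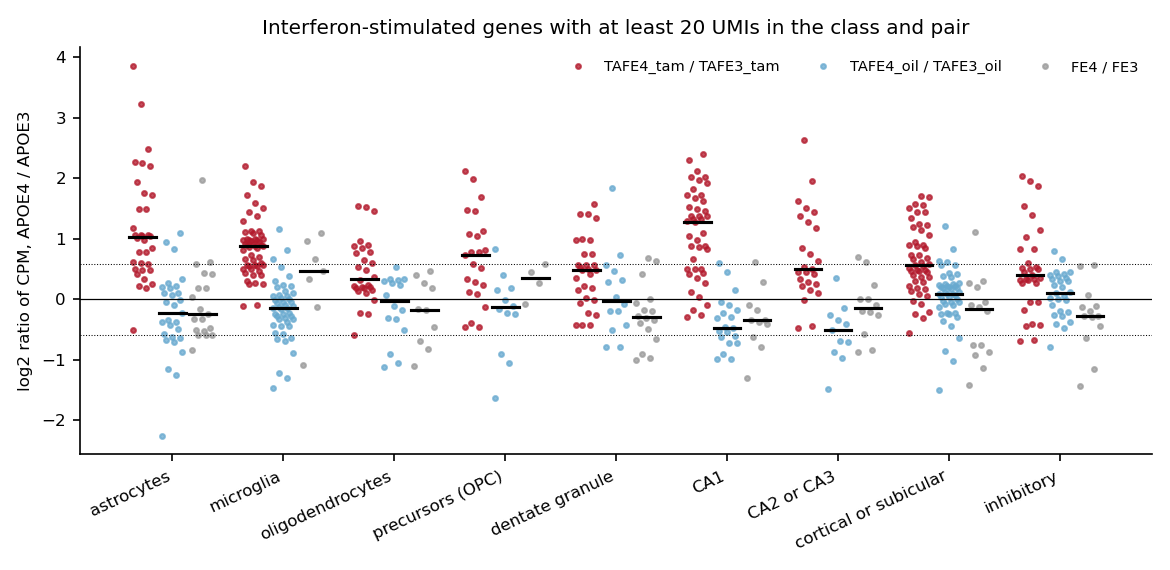
Each point is an interferon-stimulated gene with at least 20 UMIs, plotted as its log2 ratio of CPM (APOE4 over APOE3) within a class for the tamoxifen pair (red), the oil pair (blue) and the pair without tau (grey). Black bars are medians and dotted lines mark 1.5-fold. Red medians lie above 0 in all 9 classes, highest in CA1 at 1.27.

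Microglia had 335 genes past 1.5-fold higher and 227 lower. The 5 highest genes by the naming rule were Pydc4, a pyrin-domain gene, Apod, which encodes the lipid-binding apolipoprotein D, Cd300lf, an inhibitory receptor of myeloid cells, the monocyte chemokine Ccl12, and Stat2. Pydc4 had 134 UMIs in 101 nuclei of TAFE4_tam and 12 in 11 of TAFE3_tam, 87.1 and 19.6 CPM, a ratio of 2.15 [1.3, 3.14]. Ccl12 was at 212 and 93.3 CPM, 1.19 [0.78, 1.62], and Cd300lf at 77.3 and 26.2, 1.56 [0.80, 2.41]. In the oil pair Ccl12 had -1.07, lower in TAFE4_oil. The 5 lowest were Otulin, which cuts linear ubiquitin chains, at 28.6 and 133 CPM, -2.21 [-2.78, -1.67], the complex I subunit Ndufv3 (-1.19), the aldolase Aldoc (-0.91), the metallothionein Mt1 (-0.86) and clusterin, Clu (-0.80). Aldoc, Mt1 and Clu are abundant in astrocytes, whose summed markers were lower in TAFE4_tam as given above, and the part of free astrocyte RNA in their ratios was not tested.

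Disease-associated microglial genes, the programme that microglia take up around damage, differed little between the libraries. Of 36 deep enough, 3 were past 1.5-fold higher and 0 lower, beside 7.83% and 5.3% of all microglial genes, with a median of 0.22. Clec7a, the receptor dectin-1, was at 98.7 and 54.0 CPM (0.87), Csf1, a growth factor of microglia, at 182 and 106 (0.77), and Lilrb4, an inhibitory receptor, at 348 and 229 (0.60). The lipid sensor Trem2 was at 1076 and 1021 CPM (0.08) and the integrin Itgax at 123 and 134 (-0.12). Homeostatic microglial genes, which usually fall as that programme is taken up, had a median of 0.25 over 29, with 2 past 1.5-fold higher. They were Sall1, an identity factor, at 69.5 and 40.9 CPM (0.76) and Tmem119 at 109 and 70.4 (0.63). Both lists thus stood above the 0.07 of all genes by a like amount, and in the oil pair at 0.00 and -0.11. Neuronal transcripts, a measure of free RNA in microglia, had a median of -0.36 with 6 of 18 past 1.5-fold lower, such as Kcnip4 at 35.1 and 133 CPM. Its part in these medians was not tested.

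Antigen presentation split by class. MHC class I genes, which show peptides from inside the cell, had a median of 0.30 over 19 in microglia, with H2-Q4 at 259 and 137 CPM (0.91) and B2m, the shared light chain, at 453 and 280 (0.69). MHC class II genes, which show engulfed peptides to helper T cells, had -0.35 over 6, with H2-Eb1 at 83.2 and 141 CPM (-0.76) past the fold and Cd74, the invariant chain, at 487 and 627 (-0.36). In oligodendrocytes H2-K1 was at 348 and 191 CPM (0.87) and H2-D1 at 575 and 391 (0.56). Astrocytes had 1 of 8 class I genes past the fold, the non-classical H2-T23 at 118 and 60.4 CPM (0.97), beside 2.4% higher among all astrocyte genes.

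Lysosomal genes, which break down what microglia engulf, had 0 of 35 past 1.5-fold in either direction in microglia (median 0.20), 0 of 19 in astrocytes (-0.04) and 0 of 30 in oligodendrocytes (0.11). Of all genes, 2.4% were past it higher and 4.7% lower in astrocytes, and 4.24% and 4.4% in oligodendrocytes. Complement genes in microglia had a median of 0.16 over 10. There C4b, a component that tags targets, was at 179 and 96.6 CPM (0.89). The receptor gene C3ar1, with 82 and 20 UMIs, was at 53.3 and 32.7 CPM, 0.70 [-0.02, 1.49]. Clu, also on that list, was past the fold lower, at 284 and 496 CPM (-0.80). Lipid transport genes in microglia had 4 of 20 past the fold higher and 1 lower, beside 7.83% and 5.3% of all microglial genes, among them Apoc1, an apolipoprotein gene beside Apoe on its chromosome, at 67.6 and 26.2 CPM (1.37). The part of free RNA in Apoc1 was not tested.

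**Figure D4:**
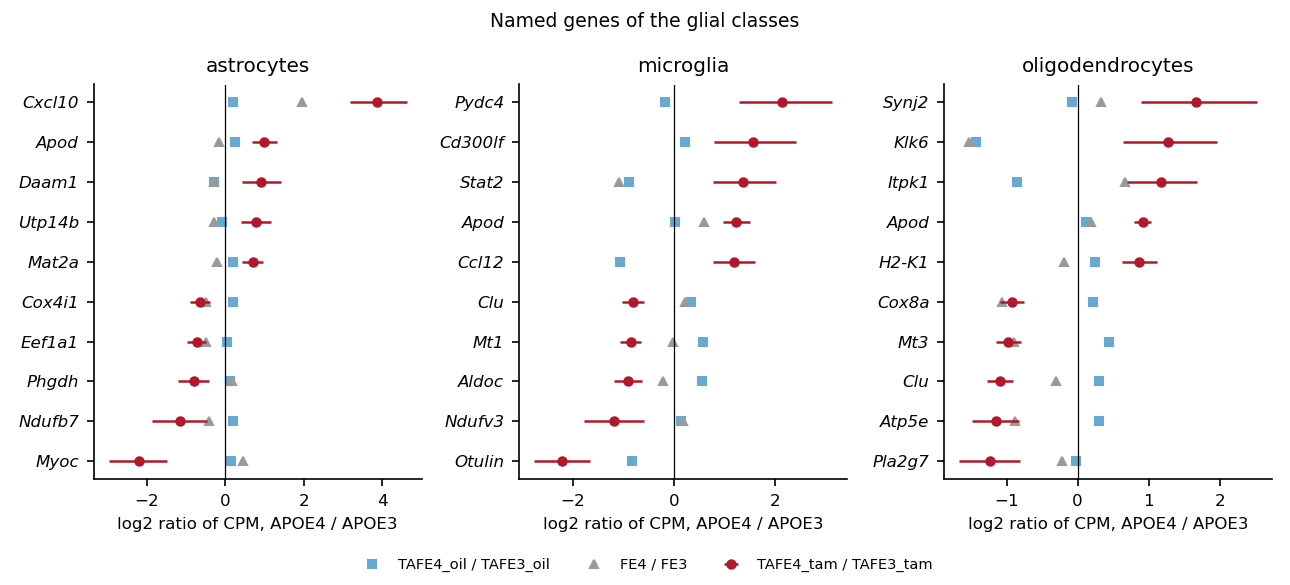
Log2 ratios of CPM for the 5 highest and 5 lowest genes of 3 glial classes by the naming rule, for the tamoxifen pair (red, with exact 95% counting intervals), the oil pair (blue squares) and FE4 against FE3 (grey triangles, where counts allowed). Ccl12 and Stat2 in microglia and Klk6 and Itpk1 in oligodendrocytes lie on the other side of 0 in the oil pair.

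Astrocytes had 46 genes past 1.5-fold higher and 90 lower among 1913, or 2.4% and 4.7%. Cxcl10, the chemokine that draws T cells, had 198 UMIs in TAFE4_tam and 19 in TAFE3_tam, 389 and 26.7 CPM, a log2 ratio of 3.87 [3.18, 4.63]. Those UMIs came from few nuclei, 16 of 254 and 14 of 352, and the richest held 37 and 5. Without the mitochondrial limit the ratio was 1.04, and with the richest nucleus of each library left out it was 4.02. Astrocytes also had more Apod, at 383 and 191 CPM, 1.00 [0.68, 1.33], and more Daam1, an actin-organising formin, at 157 and 82.9, 0.92 [0.42, 1.43]. Utp14b, at 259 and 150.3 CPM (0.79), and Mat2a, the enzyme that makes S-adenosylmethionine, at 499 and 306 (0.70), completed the highest 5.

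The lowest astrocyte gene was Myoc, which encodes the secreted protein myocilin, with 19 UMIs in 6 nuclei and 121 in 20, 37.3 and 170 CPM, -2.19 [-2.97, -1.48]. It was -1.29 without the mitochondrial limit. Phgdh, the first enzyme of serine synthesis, was at 149 and 260 CPM, -0.80 [-1.20, -0.41]. The other 3, the complex I subunit Ndufb7 (-1.14), the elongation factor Eef1a1 (-0.72) and the cytochrome oxidase subunit Cox4i1 (-0.64), were -0.47, -0.29 and -0.37 without the limit.

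Reactive astrocyte genes did not move one way. Of 14, 2 were past 1.5-fold higher (H2-T23 and Ifitm3, at 224 and 131 CPM, both also inducible by interferon) and 2 lower, the chemokine Cxcl5 at 90.4 and 155 CPM (-0.77) and Fabp7, a fatty acid carrier, at 112 and 181 (-0.69). The defining filament gene Gfap was at 1521 and 1642 CPM (-0.11). Homeostatic astrocyte genes had 0 of 27 past the fold, with a median of -0.10. Of all astrocyte genes, 2.4% were past it higher and 4.7% lower. Genes of synapse organisation and engulfment had a median of -0.16 over 16, with the engulfment receptor Mertk at 312 and 192 CPM (0.70) and Lrp4, a receptor with a role at synapses, at 78.6 and 128 (-0.70). Cholesterol synthesis had only 4 genes of that depth in astrocytes, with -0.45 for the master regulator Srebf2 and 0 past the fold. In granule cells and oligodendrocytes that list had medians of -0.09 and -0.01. Lipid transport genes in astrocytes had a median of -0.10 over 15.

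Oligodendrocytes of TAFE4_tam had more of several genes known from disease and like levels of myelin genes. Of 23 reactive oligodendrocyte genes 8 were past 1.5-fold higher and 2 lower, beside 4.24% and 4.4% of 4523 genes. Klk6, a secreted protease, had 119 and 25 UMIs, 65.8 and 27.2 CPM, a ratio of 1.27 [0.64, 1.96], against -1.43 in the oil pair. Stat3, a cytokine-driven transcription factor, was at 55.3 and 22.9 CPM (1.27), C4b at 1342 and 824 (0.70) and Serpina3n, a protease inhibitor, at 65.8 and 42.5 (0.63). Among the lower, S100b was at 81.8 and 125 CPM (-0.61). Myelin genes had 0 of 32 past the fold and a median of 0.12: Mbp stood at 3679 and 3534 CPM, and the highest, the tight junction gene Cldn11, at 795 and 536 (0.57). Synj2, a lipid phosphatase, had 100 and 16 UMIs (1.67), and Itpk1, an inositol phosphate kinase, 191 and 43 (1.17). The lowest by the naming rule were the phospholipase Pla2g7 (-1.24), the ATP synthase subunit Atp5e (-1.15), Clu (-1.09), the metallothionein Mt3 (-0.97) and the oxidase subunit Cox8a (-0.92). Lipid transport and complement genes had medians of 0.22 over 16 and 0.38 over 5.

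In precursors 2.6% and 4.78% of 1382 genes were past 1.5-fold higher and lower. The 3 highest were C4b at 519 and 273 CPM, 0.93 [0.59, 1.27], Apod at 358 and 182, 0.98 [0.57, 1.40], and Ermard at 336 and 171, 0.97 [0.55, 1.41]. The lowest were Cox8a (-0.97), Mt1 (-0.88) and Mt3 (-0.85). C4b was thus higher in precursors, oligodendrocytes and microglia of TAFE4_tam, while in astrocytes it was at 796 and 712 CPM (0.16).

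Genes past 1.5-fold in the neuron classes lay mostly outside the interferon list. In granule cells 1.7% were higher and 2.22% lower among 7930, in CA2 or CA3 neurons 3.77% and 1.02% of 6254, in cortical or subicular neurons 2.32% and 2.7% of 10851 and in inhibitory neurons 2.12% and 1.42% of 8961. Scaling by trimmed means of M values moved the split in 2 classes. Genes higher in TAFE4_tam were 78.7% of those past the fold in CA2 or CA3 and 55.9% after that scaling, and 59.9% and 42.6% in inhibitory neurons. In granule cells the actin regulator Inf2 was at 122 and 69.3 CPM (0.82), the deubiquitinase Usp7 at 147 and 87.7 (0.74) and Kbtbd11 at 259 and 159 (0.70). In CA2 or CA3 neurons Ephb2, a receptor for ephrins, was at 58.1 and 31.0 CPM (0.91) and Slc44a2 at 40.7 and 20.8 (0.97). The splicing genes Snrpf (-0.64) and Khdrbs3 (-0.62) were lower there, and B3galt6, an enzyme of proteoglycan linkers, was at 18.5 and 33.7 CPM in CA1 (-0.86).

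In cortical or subicular neurons Baiap3, which acts in dense-core vesicle release, had 29 UMIs in 24 nuclei and 245 in 142, 3.44 and 30.6 CPM, -3.15 [-3.76, -2.59], and was 1.98 in the oil pair. Igfn1 was at 36.8 and 11 CPM, 1.74 [1.40, 2.10], Clec18a, a lectin gene, at 23.9 and 6.63 (1.85) and Frmd6, a FERM-domain gene, at 68.4 and 27.3 (1.33). Igfn1 was 0.62 at no more than 1% mitochondrial UMIs. The class pooled 4 clusters, at 43.4%, 30.7%, 21.3% and 4.51% of it in TAFE4_tam and 38.0%, 32.1%, 24.8% and 5.12% in TAFE3_tam, and the part of that make-up was not tested. In inhibitory neurons Pvalb, the calcium buffer of fast-spiking cells, was at 88.7 and 41.1 CPM, 1.11 [0.84, 1.39], and Ddx26b at 293 and 171 (0.77). The serotonin receptor Htr2c was at 27.3 and 54.8 CPM (-1.01). The inhibitory class pooled a cluster led by Sst, with Pvalb among its leading genes, and a cluster led by Vip. They made up 56.5% and 43.5% of it in TAFE4_tam and 59.2% and 40.8% in TAFE3_tam. The part of the mix of subtypes in these ratios was not tested.

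Synaptic genes of neurons stayed close to the medians of all genes. Presynaptic genes had medians from 0.06 to 0.12 over 36 to 40 members in the 5 neuron classes, and postsynaptic glutamatergic genes from 0.06 to 0.15 over 37 to 45, beside 0.02 to 0.10 for all genes. GABA-A receptor genes ran from -0.08 to 0.14. Past the fold were Syn3, a synaptic vesicle gene, in granule cells (0.83), Unc13a, which primes vesicles, in inhibitory neurons (0.62) and the scaffold Homer1 in cortical neurons, at 230.1 and 135 CPM (0.77). Slc32a1, the GABA transporter of inhibitory terminals, was lower in cortical neurons (-0.83), as was the GABA-A subunit Gabrg1 (-0.86). Slc32a1 is a marker of inhibitory neurons, whose share of nuclei was lower in TAFE4_tam as given above. The part of free RNA in its cortical ratio was not tested. Tau kinases and phosphatases had medians from 0.11 to 0.17. Among them casein kinase Csnk1e was at 69.2 and 44.6 CPM in granule cells (0.63), 59.9 and 38.5 in CA1 (0.64) and 52.2 and 33.0 in CA2 or CA3 (0.66).

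Immediate early genes, which follow neuronal firing, had medians of 0.11 in granule cells, 0.19 in CA1, 0.17 in CA2 or CA3, 0.14 in cortical and -0.04 in inhibitory neurons. The clock gene Per1 was higher in CA1, at 68.8 and 38.1 CPM (0.85), and in cortical neurons, at 99.2 and 51.0 (0.96), and Bdnf, a neurotrophin, was at 85.2 and 49.3 CPM there (0.79). Egr4 was lower in cortical neurons, at 28 and 52.8 CPM (-0.91). In the oil pair the cortical median was 0.56, with 15 members past the fold higher and 0 lower, beside 2.39% and 0.563% of all genes; the difference between the pairs was not tested. The sources used here give no time of day at harvest, which Per1 follows.

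A few genes were past 1.5-fold the same way in most classes. Of 5902 genes deep enough in at least 5 classes, 7 were higher in 5 or more and 24 lower, mitochondrial and ribosomal genes aside. Apod was higher in 9 of 9 classes, by 0.80 to 1.24, and over all nuclei stood at 368 CPM in TAFE4_tam and 148 in TAFE3_tam, against 274 and 264 in the oil pair. It is abundant in oligodendrocytes, whose summed markers were 1769 and 1141 CPM, and the part of free RNA was not tested. Ifit1 was higher in 5 of 5 and Stat2 in 5 of 7, Apoc1 in 5 of 5, Per1 in 5 of 6 and Cldn11, a marker of oligodendrocytes, in 5 of 7. Apoc1 had 1.65 in cortical and 0.92 in granule neurons. The liver gene Alb stood at 29 and 0.969 CPM over all nuclei, and the part of free RNA in Apoc1 was not tested.

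Erdr1 was lower in all 9, by -2.31 to -1.01, with 186 and 535 CPM over all nuclei and 418 and 410.2 in the oil pair. Its copies on the sex chromosomes share reads, so its counts are uncertain. Tnrc6c, a partner of argonaute in microRNA silencing, was lower in all 9, by -1.22 to -0.88. It was at 384 and 753 CPM over all nuclei, and the oil pair also had it lower, by -0.54 to -0.13. Ndfip1, an adaptor of ubiquitin ligases, was lower in 6 of 6, and in cortical neurons at 25.9 and 94.8 CPM (-1.87), and Otulin in 5 of 5. The astrocyte genes Ndrg2, Aldoc, Mt1 and Gfap were lower in 7 or 8 of 9 classes. In astrocytes themselves these 4 had ratios of -0.13, -0.29, -0.04 and -0.11.

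Genes of mitochondria and translation were lower in TAFE4_tam in every class compared. The mitochondrially encoded genes had medians from -1.65 in oligodendrocytes to -0.67 in astrocytes, ribosomal protein genes from -0.64 to -0.31, and nuclear genes of oxidative phosphorylation from -0.48 to -0.02. In oligodendrocytes 52 of 79 ribosomal and 25 of 70 oxidative phosphorylation genes were past 1.5-fold lower and 0 higher, beside 4.4% lower and 4.24% higher among all genes there. The first list reads what the nuclei were filtered on, and the part of mitochondrial RNA in the other lists was not tested. FE4 against FE3, the other pair with a low-mitochondrial APOE4 library, had them lower too, and the oil pair slightly higher. Heat shock genes had medians from -0.17 to 0.14, unfolded protein response genes from -0.05 to 0.22 and p53 target genes from -0.17 to 0.24, and long nuclear RNAs from -0.19 to 0.21. Single members stood out in microglia, with Nupr1, a stress-induced chromatin protein, at 71.5 and 26.2 CPM (1.45) and Plk3, a stress kinase, at 71.5 and 29.5 (1.28). Blood genes were too few to read outside cortical neurons, where Hbb-bs was -1.92.

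**Figure D5:**
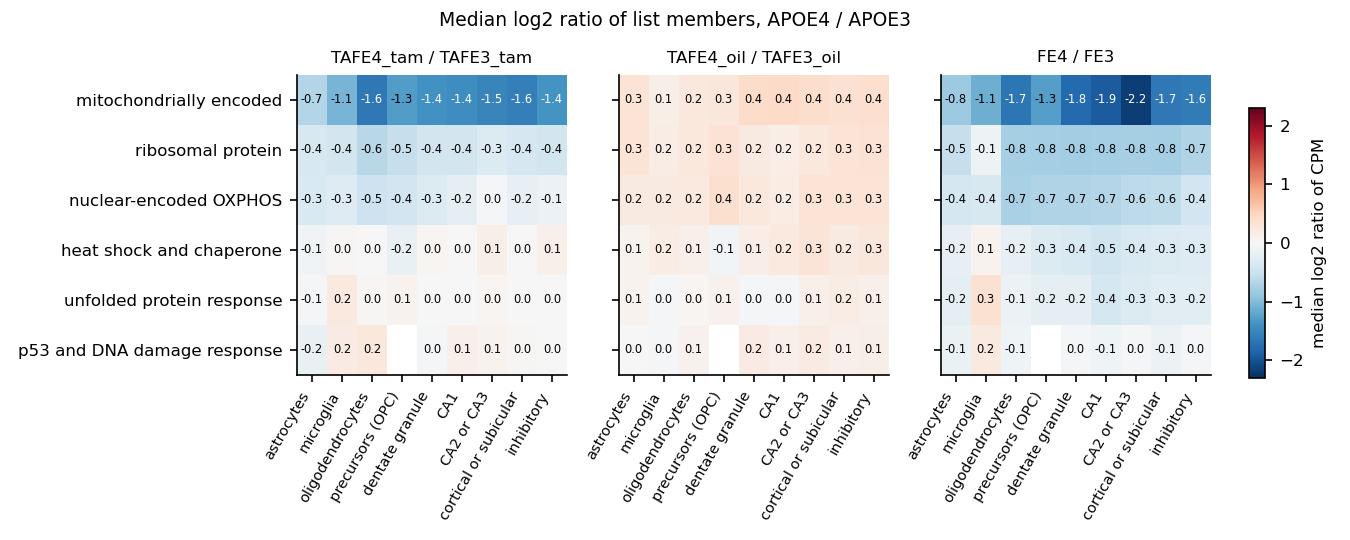
Median log2 ratio of CPM (APOE4 over APOE3) of 6 lists in 9 classes for the tamoxifen pair, the oil pair and FE4 against FE3, from blue (lower with APOE4) to red (higher); empty cells had fewer than 3 members. The top rows are blue in the pairs with a low-mitochondrial APOE4 library and pale red in the oil pair.

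Across genes of microglia, the ratios of the tamoxifen pair and of FE4 against FE3, which share no library, had Pearson's r = 0.605 over 1217 genes, and 0.603 without mitochondrial and ribosomal genes. In the other 8 classes r between these pairs ran from 0.115 in cortical neurons to 0.377 in precursors, and from 0.0079 to 0.228 without those genes. Neuronal transcripts in microglia had negative medians in both pairs, -0.36 and -1.07, and their part in r was not tested. With the oil pair r was -0.106 over 4016 genes. Genes are not independent replicates, and the APOE4 library of both FE4 and TAFE4_tam was the one low in mitochondrial RNA, which cannot be told apart from the allele there.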

How the data were processed

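The authors deposited whole-number UMI counts per gene and barcode, and per the file headers Cell Ranger 3.1.0 made them. The submitters' processing notes list mm10 and Seurat, with no role given for the latter. Free RNA was not removed, and the counts hold it. From the counts, doublets were scored per library with scrublet in scanpy 1.11.5 and the top 0.8% per 1000 nuclei left out. Nuclei of 6 libraries were clustered on 2000 variable genes and 30 components (leidenalg 0.10.2, resolution 1). Within each library, UMIs of a class were added up and scaled to its total (CPM). Ratios have exact conditional binomial 95% intervals, tested on simulated data, and counts under 3 were set to 3. Gene values need 100 UMIs over both libraries and 50 nuclei a library.

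Named genes are the 5 (glia but precursors) or 3 highest and lowest by the interval bound nearest 0. They need 20 CPM in 1 of the libraries and at least the pooled CPM of all other nuclei, and leave out mitochondrial, ribosomal and unnamed-model genes, a list of Xist, Tsix and Y-linked genes (not all genes of the sex chromosomes) and other classes' marker genes. Up to 6 genes a direction shared by at least 5 classes and the 2 highest and lowest of each list were added, and other list members chosen after their values were seen. The nuclei, lists and rule were chosen with earlier results of these data known. Older symbols replaced 7 list names, and Pcdhgc5 and Lhfpl3 were not found. Alternatives were other limits on UMIs, mitochondrial share and doublets, coarser clusters, mixed clusters kept, trimmed-mean scaling, other gene minimums and folds, and 1 nucleus left out. Some genes that the rule names are not reported here.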

Additional observations from a re-analysis of the deposited data

Results flagged for a closer look

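Several results pointed opposite ways in the tamoxifen pair and the oil pair. With 1 library a side none of these differences was tested. Shares of cortical or subicular neurons had log2 ratios of -0.28 with tamoxifen and 0.28 with oil, inhibitory neurons -0.37 and 0.36, and Cajal-Retzius neurons -0.77 and 1.92. The interferon-stimulated sums were 1.12 and -0.28 (astrocytes), 0.78 and -0.19 (microglia), 0.68 and -0.21 (precursors), 0.97 and -0.31 (CA1) and 0.65 and -0.32 (CA2 or CA3 neurons).

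Among named genes, Ccl12 had 1.19 and -1.07 in microglia, Stat2 1.38 and -0.89, Mt1 -0.86 and 0.58, Aldoc -0.91 and 0.56, and Clu -0.80 and 0.33. In oligodendrocytes Itpk1 had 1.17 and -0.86, Clu -1.09 and 0.30, Mt3 -0.97 and 0.44, and Cox8a -0.92 and 0.22. In precursors Mt1 had -0.88 and 0.53 and Mt3 -0.85 and 0.50. Baiap3 had -3.15 and 1.98 in cortical neurons, and Htr2c -1.01 and 0.73 in inhibitory neurons. These differences between pairs were not tested.

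An unnamed cluster led by liver genes held 44 nuclei of TAFE4_tam, 1 of TAFE3_tam, 4 of TAFE4_oil and 4 of TAFE3_oil. It lay outside the classes compared, but was counted in the totals behind shares of nuclei and CPM over all nuclei. Of 926 Alb UMIs in used nuclei of TAFE4_tam, 317 lay in that cluster. Over all used nuclei Alb, the main plasma protein of liver, stood at 29 CPM in TAFE4_tam and 0.969 in TAFE3_tam, and Apoa2, an apolipoprotein of liver, at 34.9 and 2.3.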

How the results depend on the processing

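No paired analysis was possible because each group is 1 library and the labels give no replicate numbers, and for the same reason no library could be left out. The mitochondrial limit mattered most. At no more than 1% the log2 ratios of shares were 0.69 in astrocytes and 0.53 in endothelial nuclei, both turned, 2.98 in microglia, 3.05 in oligodendrocytes, 2.31 in precursors, with granule cells at 0.39, CA1 at -0.34, CA2 or CA3 at -1.33 and inhibitory neurons at -0.50. It left too few nuclei for gene values in glia. Barcodes added back in the setting without a limit had not been scored for doublets. With no limit microglia had 0.15, astrocytes -1.28, precursors -0.30, oligodendrocytes 0.39, CA1 0.22, CA2 or CA3 0.13, and cortical and inhibitory neurons -0.16 and -0.24, with 0.77 in T cells and -1.38 in endothelial nuclei. At 1000 UMIs or more they were 1.48 in microglia, 0.21 in granule and 0.21 in CA1, -0.14 in cortical and -0.23 in inhibitory neurons and -0.14 in border macrophages. Coarser clusters gave -0.25 in CA1. With glia as the denominator microglia had 0.54, astrocytes -1.36, precursors -0.39 and oligodendrocytes 0.044. With doublets kept APOE in astrocytes was 0.074.

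Genes past the fold, higher then lower, changed with the minimum and the fold by construction. At 50 UMIs astrocytes had 250 and 288, microglia 799 and 468, oligodendrocytes 521 and 397, precursors 212 and 212, granule cells 314 and 345, CA1 417 and 242, CA2 or CA3 499 and 165, cortical neurons 408 and 504 and inhibitory neurons 373 and 250. At 2-fold they were 3 and 7, 40 and 39, 13 and 24, 0 and 12, 8 and 31, 22 and 19, 12 and 17, 28 and 58, and 6 and 32 in the same order. At no more than 1% mitochondrial UMIs 409 were higher in granule cells, 357 higher and 71 lower in CA1, 33 lower in CA2 or CA3, 497 and 176 in cortical and 420 and 57 in inhibitory neurons. With no limit 113 were higher in astrocytes, 313 lower in oligodendrocytes, and 67 higher and 131 lower in precursors. Doublets kept gave 89 higher in astrocytes and 60 in precursors, 1000 UMIs 106 higher in oligodendrocytes, and trimmed-mean scaling 119 higher in CA2 or CA3 and 126 in inhibitory neurons. The cause was not tested for the mitochondrial and doublet settings.

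Of lists, MHC class I in microglia was 0.70 at 1000 UMIs and myelin 0.34 with mixed clusters counted in. All 69 alternative interferon medians stayed above 0, from 0.16 to 1.41. All 558 alternative values of the 66 named results kept their sign, and 549 stayed past 1.5-fold. These results were picked by intervals far from 0 in the same counts, so kept signs are no independent check. At no more than 1% mitochondrial UMIs the named results of glia were not among the values. Pydc4 and Stat2 in microglia were 3.19 and 2.05 at 1000 UMIs, from 507 and 155 nuclei. Depth limits astrocytes and precursors most, and T cells allow no gene ratio.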

Other observations

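The T cell class, too small in TAFE3_tam for any ratio, held several T cell genes in TAFE4_tam, named after their values were seen. Cxcr6, a receptor of resident T cells, had 33 UMIs in 23 nuclei of TAFE4_tam and 3 in 2 of TAFE3_tam, and the kinase gene Lck 32 in 25 and 6 in 2. Nkg7, a granule protein of cytotoxic cells, had 20 UMIs in 17 nuclei and 0. Cd8a had 11 in 8 and 1 in 1, and Ifng and the residency gene Itgae 0 in both. Of other cytotoxic genes Gzmb had 1 UMI in each library, Gzmk 4 and 0, and Ccl5 4 and 1. The T cells of TAFE4_oil and TAFE3_oil held 10 and 7 UMIs of Cxcr6 and 4 and 4 of Nkg7. These 51 and 5 nuclei rest on the mitochondrial limit, which removed 8.9% and 83.9% of the barcodes of that class.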
